A study of Mus musculus with 14 samples.

Results

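The epithelial junction and polarity genes described here are 35 genes chosen by symbol, of 18193 genes with a probe set of their own on the array: 11 claudins, 6 other tight junction genes, 5 adherens junction genes, 9 desmosome genes and 4 polarity genes. They were found through the array annotation as the probe sets carrying exactly 1 of these gene symbols, which gave 75 of the 45101 probe sets on the array. For each gene the probe set with the highest mean signal stood for the gene, and 32 of the 35 genes lay above the filter on low signal and were tested. Whole lung RNA was measured on 14 Affymetrix arrays, 1 per lung sample, from C57BL/6 mice aged 20 weeks. The groups were wild type (n = 4), mice lacking the tetraspanin CD151 (CD151KO, n = 5) and mice lacking the tetraspanin CD9 (CD9KO, n = 5), and the title of the series names pulmonary fibrosis as its subject. The labels name no treatment and do not say which part of each gene was deleted, and the cells of the lung were not separated. The labels number the samples within each group (1, 3, 4 and 5 in wild type, 1 to 5 in each knockout) but do not say how the animals were bred or chosen, so the p-values measure the spread between these samples.

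Epithelial cells are joined at their sides by 3 kinds of contact. Tight junctions, built from claudins, occludin and scaffold proteins, seal the space between cells and set which ions and solutes pass. Adherens junctions tie cells together through E-cadherin and the catenins, and desmosomes anchor the keratin filaments of neighbouring cells. The PAR and Crumbs polarity proteins place these junctions at the border of the apical and lateral membranes. In lung, the junctions of the alveolar epithelium keep fluid out of the air space. CD151 and CD9 are 4-pass membrane proteins that gather integrins and other partners into membrane domains.

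The deposited signal ranged from 4.79 to 29667 over the 14 arrays, and the array medians lay between 84.1 and 86.2. The targeted genes fitted the labels: Cd151 signal fell from 5330 ± 372 (mean ± SD over 4 wild type arrays) to 1058 ± 17.8 over the 5 CD151KO arrays, and Cd9 signal from 8096 ± 69.4 to 667 ± 52.3 over the 5 CD9KO arrays. All 12 alveolar type 1, 9 club cell and 12 blood endothelial markers, all 10 alveolar type 2 markers with a probe set and all 11 ciliated cell markers with one passed the filter, and so did all 15 cardiac muscle markers, while only 4 of 12 squamous epithelial markers did. The arrays numbered 1 of wild type and CD151KO lay at -18.5 and -17.2 on the first principal component, away from the other 12 (-8.01 to 13.4). Both lay outside the range of the other 12 arrays for 3 of the 32 tested members (9.38%), against 16.2% of all 12985 genes tested. With 4 or 5 arrays a group, their number limits precision.

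More junction genes passed between the 2 knockouts than in either knockout against wild type. A member is counted as passing when its adjusted p was under 0.05 in limma's moderated test, with Benjamini-Hochberg adjustment over 12985 genes. Differences are log2 differences of group means of log2(signal + 16), which understate the change of dim genes. In CD151KO against wild type, 1 of 32 members passed (Prkci, lower), beside 0.778% of all genes tested (0.454% were higher and 0.323% lower in CD151KO). In CD9KO against wild type, 4 of 32 passed, beside 5.51% of all genes: Cgn, Pkp2 and Prkci were lower (2.63% of all genes were) and Pkp4 was higher (2.88% were). Between CD151KO and CD9KO, 11 of 32 passed (34.4%), beside 10.1% of all genes. Of these, Cldn5, Cldn7, Cldn8, Cldn10, Tjp3, Cgn, Epcam and Pkp2 were higher in CD151KO (5.99% of all genes were), and Cldn12, Pkp4 and Pard6b were lower (4.12% of all genes were). The median log2 difference over the 32 members was 0.02, -0.05 and 0.05 in the 3 comparisons, against 0.0079, 0.0037 and 0.0016 over all genes tested. The 3 comparisons share arrays, so their values are not independent of each other. The members were chosen with earlier results of these data known, so their shares beside those of all genes are a description and not a test. At an unadjusted p under 0.05 the members numbered 6, 12 and 13 (18.8%, 37.5% and 40.6% of 32), beside 11.1%, 25.4% and 27.6% of all genes tested. Among the 32 members, 12 passed in at least 1 comparison and 20 in none.

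**Figure D1:**
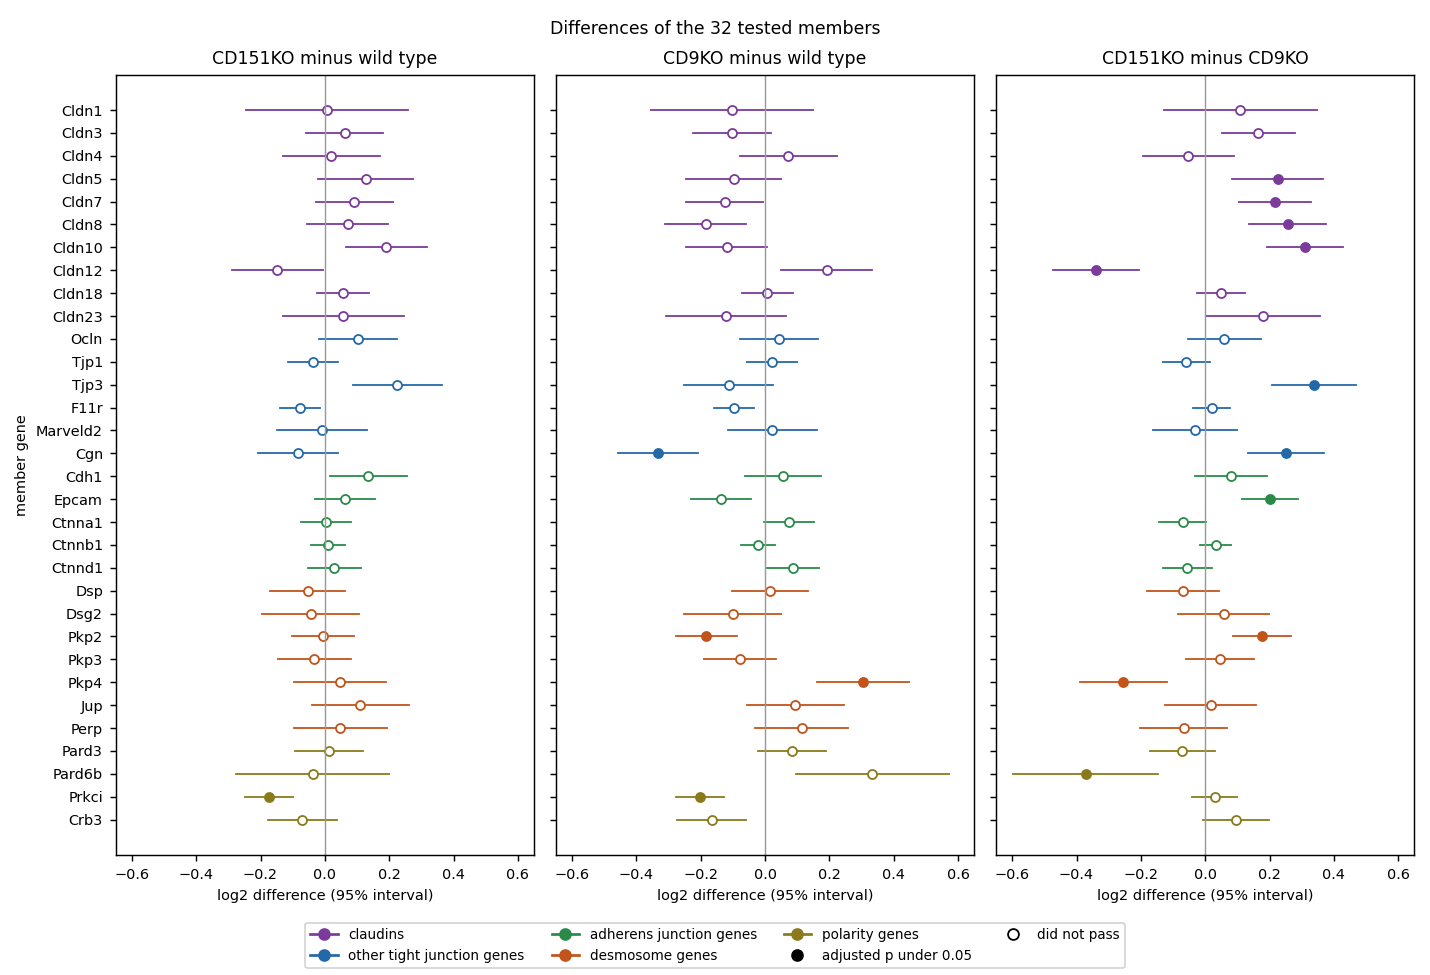
Log2 differences of group means (x axis) of the 32 tested junction and polarity genes (y axis, by role) in the 3 comparisons, 1 panel each, with 95% intervals from the limma fit; filled points passed at an adjusted p under 0.05. The filled points number 1 in CD151KO against wild type, 4 in CD9KO against wild type and 11 between the knockouts, and the largest filled difference is -0.37 (Pard6b).

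Claudins are the 4-pass proteins that form the strands of the tight junction, and some make pores while others tighten the seal. Of the 10 tested, none passed against wild type in either knockout, and 5 passed between the knockouts: Cldn5, Cldn7, Cldn8 and Cldn10 were higher in CD151KO and Cldn12 was lower. The median difference of the 10 was 0.059 in CD151KO against wild type, -0.10 in CD9KO against wild type and 0.17 between the knockouts. Taken array by array, the median of the claudins relative to the wild type mean was below 0 on all 5 CD9KO arrays (log2 -0.11 to -0.046) and ran from -0.057 to 0.094 on the CD151KO arrays.

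Cldn10, whose splice forms make cation- or anion-selective pores, had the smallest adjusted p of the claudins. Its signal was 814, 818, 754 and 789.6 in wild type, 829.4, 823, 981, 919 and 1003 in CD151KO, and 738, 742, 747, 749 and 675 in CD9KO. The 3 groups did not overlap, with CD151KO highest, wild type between and CD9KO lowest. Cldn10 was 1.24-fold higher in CD151KO than in CD9KO (log2 0.31, SE 0.056, limma adjusted p = 0.00481). Against wild type the differences did not pass, at log2 0.19, adjusted p = 0.195 in CD151KO and log2 -0.12, adjusted p = 0.217 in CD9KO; the first passed with array weights (adjusted p = 0.027). Its probe set carries the mark for probes shared by several transcripts.

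Cldn8, a barrier-forming claudin of tight epithelia, gave 154, 172, 146 and 167 in wild type, 184, 153, 171, 168 and 167 in CD151KO, and 139.5, 140.1, 146, 125 and 142 in CD9KO. Every CD9KO array lay below every CD151KO array, and the highest (145.8) lay just below the lowest wild type array (145.9). The difference between the knockouts was log2 0.26, SE 0.056, limma adjusted p = 0.0116, or 1.19-fold. In CD9KO against wild type Cldn8 had the smallest p of the claudins, and it missed the threshold (log2 -0.18, adjusted p = 0.0717).

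Cldn7, a claudin of the lateral membrane that binds EpCAM, had a signal of 1337, 1303, 1314 and 1243 in wild type, 1336, 1240, 1329, 1518 and 1525 in CD151KO, and 1194, 1209, 1147, 1248 and 1150 in CD9KO. CD151KO arrays 4 and 5 were the 2 highest of all 14, and the knockouts overlapped at their edge. Cldn7 was 1.16-fold higher in CD151KO (log2 0.22, SE 0.053, limma adjusted p = 0.019). Leaving out CD9KO number 5 ended the call (limma adjusted p = 0.0525).

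Cldn12, a claudin without the usual binding motif for ZO scaffold proteins, ran the other way. Its signal was 748, 872, 897 and 901 in wild type, 722, 817, 695, 789 and 824 in CD151KO, and 898, 927, 1011, 1028 and 1021 in CD9KO. All CD151KO arrays lay below all CD9KO arrays, and the wild type arrays overlapped both groups. Cldn12 was 1.27-fold lower in CD151KO than in CD9KO (log2 -0.34, SE 0.063, limma adjusted p = 0.00537), and its differences against wild type did not pass (log2 -0.15, adjusted p = 0.415 in CD151KO and log2 0.19, adjusted p = 0.0897 in CD9KO). With the replicate number as a block, Cldn12 passed in CD9KO against wild type (log2 0.19, adjusted p = 0.0359).

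Cldn5 is the claudin of endothelial tight junctions, and alveolar epithelium carries it too. Its promoter is shown because it is one of 2 member genes with the core sequence bound by grainyhead-like factors, regulators of epithelial junction genes. The sequence holds the 250 bases before the start listed by RefSeq, at chr16:18776597-18776846 (plus strand) in GRCm38.p6, read 5′ to 3′, and capitals mark the match to AACNNGTT.

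Cldn5: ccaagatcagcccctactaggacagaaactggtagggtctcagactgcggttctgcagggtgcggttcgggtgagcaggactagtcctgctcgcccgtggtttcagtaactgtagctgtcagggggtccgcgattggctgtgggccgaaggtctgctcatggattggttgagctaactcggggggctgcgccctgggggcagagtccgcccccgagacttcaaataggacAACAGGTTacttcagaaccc

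Cldn5 signal was 4473, 4939, 4761 and 4870 in wild type, 5691, 5288, 5635, 4645 and 4803 in CD151KO, and 4742, 4945, 4210, 3965 and 4427 in CD9KO. CD151KO arrays 1, 2 and 3 were the highest of the 14, and CD151KO arrays 4 and 5 lay among the CD9KO arrays. The difference between the knockouts passed narrowly (log2 0.22, SE 0.066, limma adjusted p = 0.0429). Leaving out wild type number 3, 4 or 5, CD151KO number 1, 2 or 3 or CD9KO number 3, 4 or 5 ended the call (limma adjusted p from 0.0518 to 0.108), as did quantile normalization (0.0508), no filter on low signal (0.0539), a fit of only the compared groups (0.0604), no mean-variance trend (0.0526), array weights (0.0792) and dropping both number 1 arrays that stood apart (0.0821). Of 12 blood endothelial markers, 3 passed between the knockouts, all lower in CD151KO: Ramp2 (log2 -0.31, adjusted p = 0.00266), Eng (log2 -0.25, adjusted p = 0.019) and Car4 (log2 -0.21, adjusted p = 0.0129). The summed signal of the 12 markers ran from 28250 to 30510 in CD151KO and from 30620 to 32690 in CD9KO. Over all 12 the median difference was -0.021, with 9 below 0 and 3 above, and the part of endothelium in the Cldn5 value was not tested. In whole lung, fewer cells of a type and less RNA per cell cannot be told apart, for this and every other gene here.

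**Figure D2:**
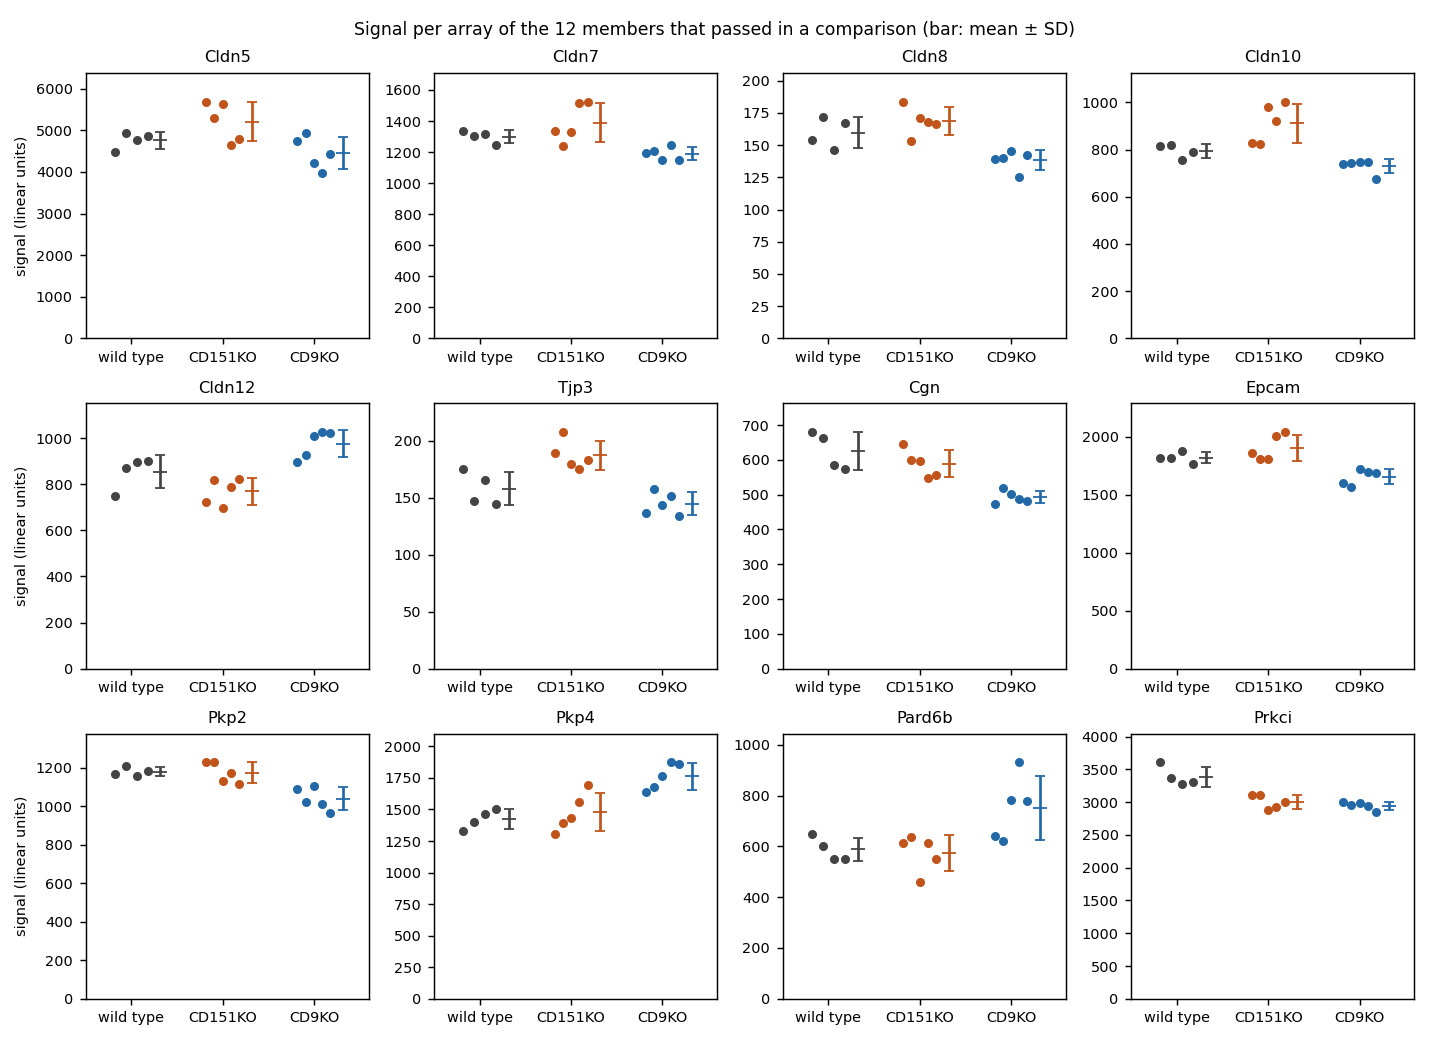
Deposited signal (linear y axis, arbitrary units) on each of the 14 arrays for the 12 members that passed in at least 1 comparison, 1 panel a gene, by group; points are arrays and bars are the group mean with its SD. The CD9KO arrays lie lowest for Cgn, Epcam, Pkp2, Cldn10 and, narrowly, Cldn8. They have the highest mean for Pkp4, Cldn12 and Pard6b, and both knockouts lie below wild type for Prkci.

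The other 5 tested claudins passed in no comparison. They were Cldn1 (wild type mean 140 ± 15.6, SD, n = 4), Cldn3 (2683 ± 171), Cldn4 (70.4 ± 8.57), Cldn18 (5085 ± 213) and Cldn23 (68.4 ± 10.2). Cldn3, a claudin of alveolar type 2 and airway cells, came closest between the knockouts (log2 0.16, adjusted p = 0.063), and it passed there with array weights (0.0253) or without wild type 1 (0.039), CD151KO 2 (0.0314) or CD9KO 2 (0.0339). Of its 3 other probe sets, 1426332_a_at passed between the knockouts (log2 0.18, adjusted p = 0.0474, among 22951 probe sets tested singly), and 1434651_a_at (log2 0.14, adjusted p = 0.147) and 1460569_x_at (log2 0.12, adjusted p = 0.187) did not. The 1426332_a_at call was lost in 13 of 20 alternatives, among them leaving out wild type 3, 4 or 5, CD151KO 1, 3, 4 or 5, or CD9KO 1, 3, 4 or 5, with an adjusted p of up to 0.108. Cldn2, a pore-forming claudin of leaky epithelia, lay below the filter in all 3 groups (means 50.0, 46.6 and 47.2, against a filter at 53.4) and was not tested.

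Cldn18, the claudin that marks alveolar epithelium in lung, gave different answers from its 2 probe sets. The probe set that stands for the gene (1449428_at) read 4954, 4870, 5176 and 5340 in wild type, 5374, 5422, 5002, 5496 and 5147 in CD151KO, and 4942, 5094, 5373, 5180 and 4961 in CD9KO, and none of its differences passed. The other (1425445_a_at) read 5023, 4498, 4313 and 4699 in wild type, 4463, 3870, 3740, 4013 and 3812 in CD151KO, and 3633, 3507, 2743, 2657 and 2556 in CD9KO. On that probe set every CD9KO array lay below every CD151KO array, and every CD9KO array lay below every wild type array; CD9KO arrays 3, 4 and 5 were the lowest. It was 1.55-fold lower in CD9KO than in wild type (log2 -0.63, SE 0.10, limma adjusted p = 0.00832 among 22951 probe sets) and 1.33-fold higher in CD151KO than in CD9KO (log2 0.41, SE 0.090, limma adjusted p = 0.0137). Both calls held in all 20 alternatives run, and with the mean of both probe sets Cldn18 passed in CD9KO against wild type (log2 -0.31, adjusted p = 0.0132) and between the knockouts (log2 0.23, adjusted p = 0.0135). It was the largest difference from wild type of any tested member probe set in CD9KO.

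Cldn18 has starts at 2 places in the RefSeq table, and the 250 bases before each are shown because the probe sets disagree; which start or splice form either probe set reads was not tested. They lie at chr9:99710064-99710313 (minus strand) and chr9:99717268-99717517 (minus strand) in GRCm38.p6. Neither holds the 3 motifs searched, so both are in lower case throughout.

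Cldn18 start 1: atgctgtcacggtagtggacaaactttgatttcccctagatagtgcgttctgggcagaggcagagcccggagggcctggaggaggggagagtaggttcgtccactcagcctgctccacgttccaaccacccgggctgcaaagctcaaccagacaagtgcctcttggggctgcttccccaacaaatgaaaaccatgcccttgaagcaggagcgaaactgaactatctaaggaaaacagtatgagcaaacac

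Cldn18 start 2: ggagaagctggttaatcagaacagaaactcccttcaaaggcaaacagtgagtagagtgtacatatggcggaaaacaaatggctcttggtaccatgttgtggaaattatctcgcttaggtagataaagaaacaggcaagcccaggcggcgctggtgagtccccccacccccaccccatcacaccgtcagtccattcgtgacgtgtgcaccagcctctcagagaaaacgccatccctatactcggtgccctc

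The 6 tight junction genes other than claudins are the membrane proteins Ocln (occludin), Marveld2 (tricellulin, at 3-cell corners) and F11r (the adhesion molecule JAM-A), and the cytoplasmic scaffolds Tjp1 (ZO-1), Tjp3 (ZO-3) and Cgn (cingulin). Of these, Cgn passed in CD9KO against wild type, Cgn and Tjp3 passed between the knockouts, and none passed in CD151KO against wild type. The other 4 passed in no comparison.

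Cingulin links tight junctions to actin and myosin. The Cgn promoter is shown as the only member window with both a grainyhead-like core and the E-box CACGTG, and capitals mark each. It lies at chr3:94786483-94786732 (minus strand) in GRCm38.p6.

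Cgn: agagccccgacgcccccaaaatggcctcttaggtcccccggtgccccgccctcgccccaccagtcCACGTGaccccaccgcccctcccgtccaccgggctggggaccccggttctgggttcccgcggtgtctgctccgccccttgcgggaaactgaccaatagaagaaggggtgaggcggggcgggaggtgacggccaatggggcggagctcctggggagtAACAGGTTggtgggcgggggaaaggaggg

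Cgn signal was 681, 664, 586 and 574 in wild type, 645, 601, 596, 548 and 558 in CD151KO, and 474, 518, 503, 488 and 481 in CD9KO. All 5 CD9KO arrays lay below all 9 others, and wild type and CD151KO overlapped. Cgn was 1.26-fold lower in CD9KO than in wild type (log2 -0.33, SE 0.058, limma adjusted p = 0.0122) and 1.19-fold higher in CD151KO than in CD9KO (log2 0.25, SE 0.055, limma adjusted p = 0.0122). In CD151KO against wild type it did not pass (log2 -0.083, adjusted p = 0.652). Both Cgn calls held in all 26 alternatives, among them the mean of its 2 probe sets. The second set, 1430329_at, was dim (wild type mean 63.7) and passed in neither comparison when fitted singly. It differed by log2 -0.062 in CD9KO against wild type (limma adjusted p = 0.503) and log2 0.091 between the knockouts (limma adjusted p = 0.289). Of the 2 sets fitted singly, only the first thus passed.

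Tjp3, a scaffold restricted to epithelial tight junctions, gave 175, 147, 165 and 144 in wild type, 189.6, 208, 179.5, 175 and 183 in CD151KO, and 136, 158, 144, 151 and 134 in CD9KO. All CD151KO arrays lay above all CD9KO arrays, and the lowest CD151KO array (175.1) stood just above the highest wild type array (174.8). Tjp3 was 1.26-fold higher in CD151KO than in CD9KO (log2 0.34, SE 0.061, limma adjusted p = 0.00504), and its differences from wild type did not pass (log2 0.23, adjusted p = 0.153 in CD151KO and log2 -0.11, adjusted p = 0.287 in CD9KO). The call between the knockouts held in all 26 alternatives.

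Markers of lung cell types also differed between the knockouts and are given beside these results. Of 9 club cell markers, with a median difference of 0.065, Scgb3a1 (log2 0.70, adjusted p = 0.0277) and Bpifa1 (log2 1.06, adjusted p = 0.0177) were higher in CD151KO than in CD9KO, and the summed signal of the 9 ran from 100700 to 106200 in CD151KO and from 89030 to 100700 in CD9KO. Of 11 ciliated cell markers 1 passed (Dnah11, log2 0.20, adjusted p = 0.0271) and 8 had an unadjusted p under 0.05. Their differences lay above 0 for 10 and below for 1, with a median of 0.19 and sums of 10680 to 12820 and 9672 to 11440. Of 12 alveolar type 1 markers (median -0.064, 5 above 0 and 7 below) Clic5 was lower (log2 -0.13, adjusted p = 0.0303). Of 10 alveolar type 2 markers (median 0.022, 6 above 0 and 4 below) Abca3 was higher (log2 0.36, adjusted p = 0.0041) and Nkx2-1 lower (log2 -0.32, adjusted p = 0.00743). Of 10 mesothelial markers 0 passed by limma (3 at an unadjusted p under 0.05), all 10 differences were above 0 and their median was 0.21, with sums of 12070 to 12970 in CD151KO and 9892 to 12570 in CD9KO. Of 7 blood cell markers (median 0.22, 4 above 0 and 3 below) the neutrophil genes S100a8 (log2 1.61, adjusted p = 0.00926) and S100a9 (log2 1.78, adjusted p = 0.00813) were higher in CD151KO, with sums of 6284 to 14660 and 4684 to 7084. Of 12 fibroblast markers (median -0.011) Col1a2 was higher (log2 0.27, adjusted p = 0.0359) and Tcf21 (log2 -0.36, adjusted p = 0.0377) and Fn1 (log2 -0.27, adjusted p = 0.0129) were lower. Against wild type, 0 club or ciliated cell markers passed by limma. All 9 club cell differences were above 0 in CD151KO (median 0.16, wild type sums 95760 to 99540). In CD9KO 5 were above and 4 below (median 0.011). The ciliated cell differences were above 0 for 8 and below for 3 in CD151KO (median 0.042). In CD9KO 1 was above and 10 were below (median -0.13). The part of all the cell types named here in the junction gene differences was not tested.

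The other 4 tight junction genes had wild type means of 879 ± 16.6 for Ocln, 4785 ± 76.4 for Tjp1, 2597 ± 73.1 for F11r and 194 ± 19.0 for Marveld2 (SD, n = 4). Their differences against wild type lay between -0.10 (F11r in CD9KO, adjusted p = 0.0584) and 0.10 (Ocln in CD151KO, adjusted p = 0.534). For Tjp1 the 95% interval of the difference in CD9KO against wild type ran from -0.056 to 0.10.

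The adherens junction genes are Cdh1 (E-cadherin), the catenins Ctnna1, Ctnnb1 and Ctnnd1 that join it to actin and control its turnover, and Epcam, an epithelial adhesion protein that binds claudins. One of the 5, Epcam, passed, and only between the knockouts. The promoter of Epcam is shown as that of a passing member holding more than 1 match to the E2-box CAGGTG, the sequence bound by ZEB and Snail repressors of epithelial genes. Capitals mark the matches on either strand (CACCTG on the other), and the window is chr17:87635729-87635978 (plus strand) in GRCm38.p6.

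Epcam: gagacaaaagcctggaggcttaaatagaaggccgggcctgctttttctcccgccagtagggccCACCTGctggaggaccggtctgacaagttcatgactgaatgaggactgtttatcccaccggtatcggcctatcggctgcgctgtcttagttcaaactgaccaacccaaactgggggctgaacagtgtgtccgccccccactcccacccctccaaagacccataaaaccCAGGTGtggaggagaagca

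Epcam signal was 1820, 1818, 1875 and 1767 in wild type, 1862, 1809, 1805, 2006 and 2042 in CD151KO, and 1602, 1568, 1721, 1693 and 1684 in CD9KO. All CD9KO arrays lay below all others, and wild type and CD151KO overlapped. Epcam was 1.15-fold higher in CD151KO than in CD9KO (log2 0.20, SE 0.041, limma adjusted p = 0.00867) and missed the threshold in CD9KO against wild type (log2 -0.14, adjusted p = 0.07). The call ended with the mean of all its probe sets (0.11). The other Epcam probe set, 1447899_x_at, did not follow the first when each was fitted singly. It differed by log2 0.017 between the knockouts (limma adjusted p = 0.894) and log2 0.014 in CD9KO against wild type (limma adjusted p = 0.912). The Epcam result thus rests on 1 of 2 probe sets.

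Cdh1, the classical cadherin of epithelia, gave 3757, 4593, 4305 and 4314 in wild type, 4642, 4939, 4431, 4761 and 4489 in CD151KO, and 4200, 4196, 4678, 4701 and 4253 in CD9KO. Wild type 1 was the lowest array of all 14, and the groups overlapped throughout. Its differences were log2 0.14, adjusted p = 0.357 in CD151KO against wild type and log2 0.056, adjusted p = 0.547 in CD9KO against wild type. The catenin probe sets that stand for their genes differed from wild type by between -0.022 (Ctnnb1 in CD9KO) and 0.086 (Ctnnd1 in CD9KO). The differences of Ctnna1 and Ctnnb1 in CD151KO against wild type (0.0042 and 0.0099) turned negative with quantile normalization, and no other member's sign depended on the scaling.

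Other probe sets of 2 catenins behaved differently from the ones that stand for the genes. For Ctnnd1 (p120-catenin, which keeps cadherin at the membrane) the probe set 1422450_at read 472, 574, 578 and 515 in wild type, 566, 567, 615, 586 and 519 in CD151KO, and 668, 649, 749, 650.4 and 651 in CD9KO, and it was higher in CD9KO than in wild type (log2 0.33, SE 0.065, limma adjusted p = 0.0135) in all 20 alternatives run. The representative Ctnnd1 set, which carries the shared-probe mark, gave log2 0.086, adjusted p = 0.173, and the mean of the Ctnnd1 probe sets passed in CD9KO against wild type (log2 0.17, adjusted p = 0.0169) and between the knockouts (log2 -0.15, adjusted p = 0.0109). Between the knockouts the probe set 1422450_at was lower in CD151KO (log2 -0.23, adjusted p = 0.0319). Leaving out CD151KO number 1, 2 or 5 or CD9KO number 1, 3 or 5 ended the call (limma adjusted p from 0.0509 to 0.0774).

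For Ctnnb1 (β-catenin, also the effector of Wnt signalling) the probe set 1430533_a_at read 1138, 1110, 980 and 1025 in wild type, 1169, 1025, 1093, 991 and 1161 in CD151KO, and 974, 892, 866, 911 and 916 in CD9KO. It was lower in CD9KO than in wild type (log2 -0.22, SE 0.058, limma adjusted p = 0.0372) and higher in CD151KO than in CD9KO (log2 0.25, adjusted p = 0.0134), the latter in all 20 alternatives. Leaving out wild type number 1 or 3 or CD9KO number 2, 3, 4 or 5 ended the call in CD9KO against wild type (limma adjusted p from 0.0569 to 0.103), as did dropping both number 1 arrays that stood apart (0.0794). One more Ctnnb1 probe set, 1450008_a_at, passed between the knockouts as well (log2 0.13, adjusted p = 0.044). Leaving out wild type number 4 or 5, CD151KO number 1, 2 or 3 or CD9KO number 1, 2, 3, 4 or 5 ended the call (limma adjusted p from 0.0548 to 0.112), as did quantile normalization (0.0784) and the replicate number as a block (0.0595). Against wild type the 2 sets differed. In CD151KO 1450008_a_at gave log2 0.095 (limma adjusted p = 0.343) and 1430533_a_at log2 0.032 (0.891). In CD9KO 1450008_a_at gave log2 -0.030 (limma adjusted p = 0.642), beside the -0.22 of 1430533_a_at. The representative set, read at 10970 in wild type, passed in no comparison, and the mean of the Ctnnb1 probe sets passed between the knockouts (log2 0.14, adjusted p = 0.0118).

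Desmosomes are built from the cadherins Dsg2 and Dsc2, the plakophilins (Pkp1 to Pkp4) and plakoglobin (Jup) that bind them, and desmoplakin (Dsp), which holds keratin; Perp is a membrane protein of the same plaques. Of 7 tested, Pkp2 and Pkp4 passed in CD9KO against wild type and between the knockouts, in opposite directions, and none passed in CD151KO against wild type. Pkp4 is found at adherens junctions as well as desmosomes.

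Pkp2, the plakophilin of simple epithelia and of heart muscle, gave 1166, 1212, 1160 and 1181 in wild type, 1230, 1229, 1130, 1172 and 1116 in CD151KO, and 1090, 1021, 1107, 1011 and 964 in CD9KO. All CD9KO arrays lay below all arrays of the other groups, which overlapped. Pkp2 was 1.14-fold lower in CD9KO than in wild type (log2 -0.18, SE 0.045, limma adjusted p = 0.0338) and 1.13-fold higher in CD151KO than in CD9KO (log2 0.18, SE 0.042, limma adjusted p = 0.018). For CD9KO against wild type: leaving out wild type number 1, 3 or 5 or CD9KO number 2, 4 or 5 ended the call (limma adjusted p from 0.051 to 0.0896), as did the mean of all its probe sets (0.123), a fit of only the compared groups (0.0507) and dropping both number 1 arrays that stood apart (0.0507). Between the knockouts: leaving out CD151KO number 1 or CD9KO number 5 ended the call (limma adjusted p from 0.0507 to 0.0514), as did the mean of all its probe sets (0.202). Fitted singly, the Pkp2 probe sets 1429183_at and 1460511_at passed in neither comparison. In CD9KO against wild type they gave log2 -0.22 (limma adjusted p = 0.0997) and -0.080 (0.357), and between the knockouts log2 0.082 (0.535) and 0.029 (0.76). Cardiac muscle markers, which pulmonary vein muscle carries, had medians of the opposite sign to Pkp2: over 15 markers the median was 0.38 in CD9KO against wild type, where Myh6 passed (log2 0.72, adjusted p = 0.0275), and -0.28 between the knockouts, where Myh6 (log2 -0.56, adjusted p = 0.0389), Ankrd1 (log2 -0.52, adjusted p = 0.00743) and Myl3 (log2 -0.27, adjusted p = 0.0483) passed. Their summed signal ran from 9192 to 10720 in wild type, 8379 to 14290 in CD151KO and 11410 to 16060 in CD9KO, and their part in the desmosome gene values was not tested.

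Pkp4 (p0071) gave 1330, 1398, 1466 and 1502 in wild type, 1304, 1396, 1434, 1560 and 1692 in CD151KO, and 1637, 1677, 1763, 1876 and 1858 in CD9KO. All CD9KO arrays lay above all wild type arrays, and CD151KO array 5 reached into the CD9KO range. Pkp4 was 1.23-fold higher in CD9KO than in wild type (log2 0.30, SE 0.067, limma adjusted p = 0.0241) and 1.19-fold lower in CD151KO than in CD9KO (log2 -0.26, SE 0.063, limma adjusted p = 0.0213). For CD9KO against wild type, leaving out wild type number 1 or 3 or CD9KO number 4 or 5 ended the call (limma adjusted p from 0.0568 to 0.0669). Between the knockouts, leaving out CD151KO number 1 or 2 or CD9KO number 4 or 5 ended the call (limma adjusted p from 0.0528 to 0.0593). Its other tested probe set, 1438677_at, was also higher in CD9KO than in wild type (log2 0.23, adjusted p = 0.0227) and lower in CD151KO than in CD9KO (log2 -0.23, adjusted p = 0.0128), the latter in all 20 alternatives. Leaving out wild type number 1 or 3 or CD9KO number 5 ended the first of these calls (limma adjusted p from 0.0545 to 0.0651).

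Jup had the smallest unadjusted p of the desmosome genes in CD151KO against wild type, and its arrays gave 351, 349.8, 371 and 394 in wild type, 387, 439, 401, 407 and 353 in CD151KO, and 429, 388, 430, 374 and 344 in CD9KO. The groups overlapped and no difference passed (log2 0.11, adjusted p = 0.604 in CD151KO and log2 0.094, adjusted p = 0.411 in CD9KO). The other tested desmosome genes had wild type means of 1914 ± 179.8 for Dsp, 665 ± 64.7 for Dsg2, 201 ± 18 for Pkp3 and 629 ± 20.1 for Perp (SD, n = 4), with differences from -0.10 (Dsg2 in CD9KO) to 0.11 (Perp in CD9KO) against wild type. Dsc2 (mean 35.1 ± 1.71) and Pkp1 (20.6 ± 2.69), a plakophilin of stratified epithelia, lay below the filter and were not tested.

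**Figure D3:**
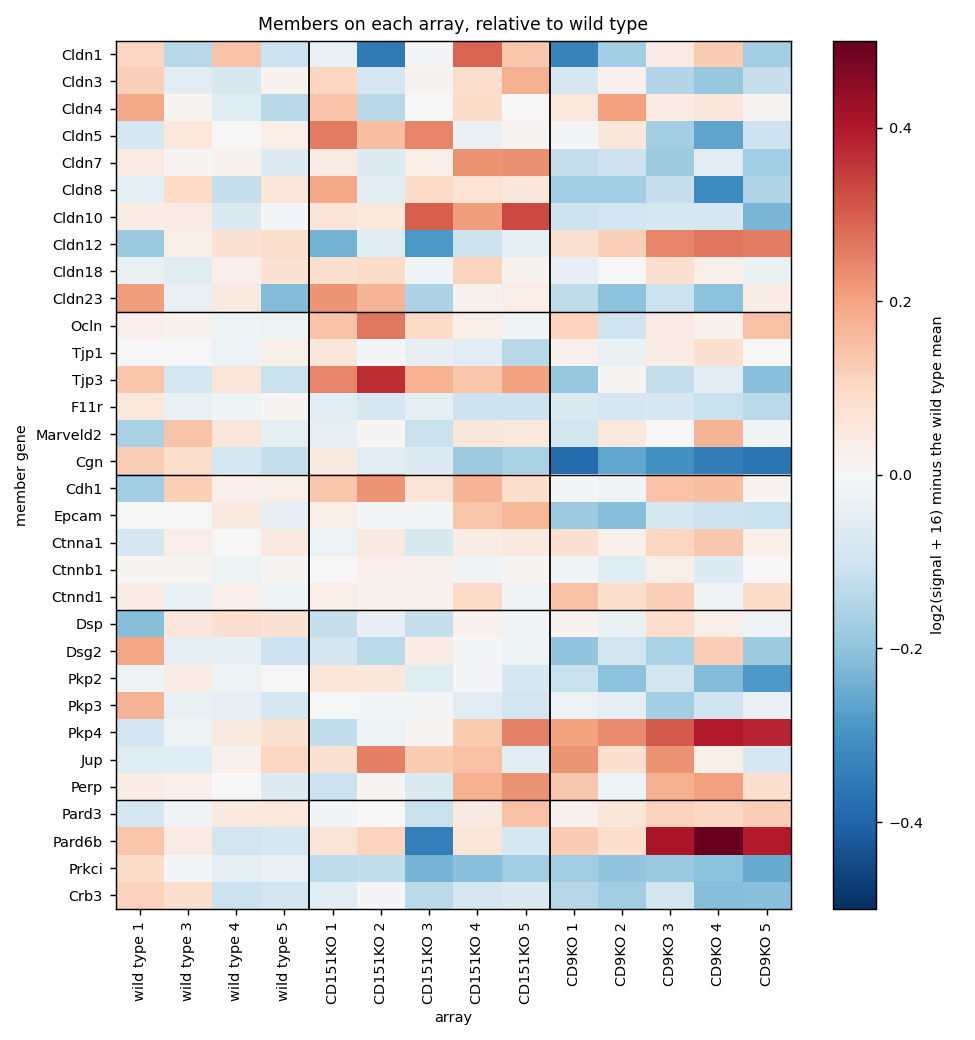
Log2(signal + 16) of each tested member on each of the 14 arrays minus that gene's wild type mean (colour scale), with genes in rows by role and arrays in columns by group; colours saturate at the ends of the scale. Most claudins and Cgn, Epcam and Pkp2 are below the wild type mean in the CD9KO columns, while Pkp4, Pard6b and Cldn12 are above it. Prkci is below it in both knockouts, and so, by less, are F11r, Crb3 and Pkp3.

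The polarity genes are Pard3, Pard6b and Prkci, which encode the members of the PAR complex (a scaffold, its adaptor and the atypical protein kinase C iota), and Crb3, an apical membrane protein that recruits them. Prkci passed in both knockouts against wild type, and Pard6b passed between the knockouts. The promoters of the kinase and of its adaptor are shown side by side: the Pard6b window, at chr2:168080754-168081003 (plus strand), holds 2 E2-boxes and 1 E-box in capitals, and the Prkci window, at chr3:30995521-30995770 (plus strand), holds none of the 3 motifs (both GRCm38.p6).

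Pard6b: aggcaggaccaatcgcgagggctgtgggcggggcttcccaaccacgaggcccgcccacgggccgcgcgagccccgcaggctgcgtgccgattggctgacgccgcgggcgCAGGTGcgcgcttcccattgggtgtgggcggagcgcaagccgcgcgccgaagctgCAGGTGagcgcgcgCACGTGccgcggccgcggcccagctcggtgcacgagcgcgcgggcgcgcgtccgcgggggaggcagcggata

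Prkci: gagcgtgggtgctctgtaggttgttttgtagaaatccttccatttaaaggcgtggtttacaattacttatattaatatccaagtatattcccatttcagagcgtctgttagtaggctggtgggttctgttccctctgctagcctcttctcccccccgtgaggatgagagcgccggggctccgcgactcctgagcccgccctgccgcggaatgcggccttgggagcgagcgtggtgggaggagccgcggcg

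Prkci signal was 3613, 3373, 3277 and 3302 in wild type, 3104, 3111, 2881, 2928 and 3001 in CD151KO, and 3004, 2952, 2981, 2940 and 2845 in CD9KO. All 10 knockout arrays lay below all 4 wild type arrays, and the 2 knockouts overlapped. F11r showed the same separation, though its differences did not pass. Of all genes tested, 4.54% did not overlap between CD151KO and wild type, and 11.8% did not overlap between CD9KO and wild type. The BioB hybridization control, which is added to the samples and comes from no lung gene, also separated wild type (314 to 354) from CD151KO (363 to 424.5) and CD9KO (361 to 444). The same 4 wild type arrays enter every comparison against wild type. The part of this difference in the Prkci result, or in that of any other gene against wild type, was not tested. Prkci was 1.13-fold lower in CD151KO than in wild type (log2 -0.17, SE 0.035, limma adjusted p = 0.0325) and 1.15-fold lower in CD9KO than in wild type (log2 -0.20, SE 0.035, limma adjusted p = 0.0122); both use the same 4 wild type arrays. Leaving out wild type number 1, 3, 4 or 5, CD151KO number 3, 4 or 5 or CD9KO number 3 ended the call in CD151KO (limma adjusted p from 0.0527 to 0.089), as did arrays centred on their median (0.0634), the mean of all its probe sets (0.592), a fit of only the compared groups (0.121), no mean-variance trend (0.0618) and dropping both number 1 arrays that stood apart (0.0604). The CD9KO call was lost only when all Prkci probe sets were averaged (0.212).

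The second Prkci probe set, 1448695_at, read 158, 184, 150.1 and 168 in wild type, 181, 173, 181, 155 and 169 in CD151KO, and 157, 171, 180.1, 175 and 171 in CD9KO. It did not follow the first: its differences were 0.054 in CD151KO (adjusted p = 0.806) and 0.047 in CD9KO (adjusted p = 0.65) against wild type. The Prkci result thus rests on 1 of 2 probe sets. The set that passed carries the mark for probes shared by several transcripts, and the second was dimmer (wild type means 3391 and 165).

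Pard6b signal was 648, 603, 549.7 and 551 in wild type, 614, 635, 459.8, 613 and 552 in CD151KO, and 642, 622, 783, 932 and 778 in CD9KO. CD9KO arrays 3, 4 and 5 were the 3 highest, and CD9KO arrays 1 and 2 lay among the wild type arrays. Pard6b was 1.29-fold lower in CD151KO than in CD9KO (log2 -0.37, SE 0.11, limma adjusted p = 0.0387), and missed the threshold in CD9KO against wild type (log2 0.33, adjusted p = 0.0815), where it passed with array weights (0.0322). Leaving out wild type number 3, CD151KO number 1, 3 or 5 or CD9KO number 3, 4 or 5 ended the call between the knockouts (limma adjusted p from 0.0503 to 0.0882), as did the mean of all its probe sets (0.0563) and a fit of only the compared groups (0.0541). The second Pard6b probe set, 1423175_s_at, had the same signs but did not pass when fitted singly. It differed by log2 -0.21 between the knockouts (limma adjusted p = 0.0961) and log2 0.17 in CD9KO against wild type (limma adjusted p = 0.181).

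Pard3 (wild type 429.7 ± 20.3) and Crb3 (605 ± 50.2) passed in no comparison through the probe sets that stand for them, and Crb3 came closest in CD9KO against wild type (log2 -0.17, adjusted p = 0.0622). There Crb3 passed, as lower in CD9KO, without wild type 4 (0.0473), without wild type 5 (0.0466) and with the replicate number as a block (log2 -0.17, adjusted p = 0.0409). A second Pard3 probe set, 1436764_at, read 174, 175, 165 and 180.2 in wild type, 181, 176, 196, 203 and 208 in CD151KO, and 197, 200.4, 216, 228 and 223 in CD9KO. It was higher in CD9KO than in wild type (log2 0.27, SE 0.057, limma adjusted p = 0.0166) in all 20 alternatives run, while the representative set gave log2 0.084, adjusted p = 0.3.

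Every probe set was also fitted singly, 22951 in all, of which 61 were member probe sets. In that fit 1, 9 and 18 member probe sets passed in CD151KO against wild type, CD9KO against wild type and between the knockouts, beside 0.627%, 6.78% and 7.70% of all probe sets. Among 29 tested second probe sets, the sign matched that of the representative set for 19, 23 and 25. Probe sets of 1 gene share their RNA and are not replicates. The probe sets that stand for Pkp2, Dsp and Jup also carry the mark for probes shared by several transcripts, and those of Cldn3 and Ctnna1 carry a mark for possible cross-hybridisation. For Cldn12 the second set (1433782_at) was also lower in CD151KO than in CD9KO (log2 -0.30, adjusted p = 0.0259). Leaving out CD151KO number 1, 2 or 3 or CD9KO number 3, 4 or 5 ended the call (limma adjusted p from 0.0504 to 0.0663).

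**Figure D4:**
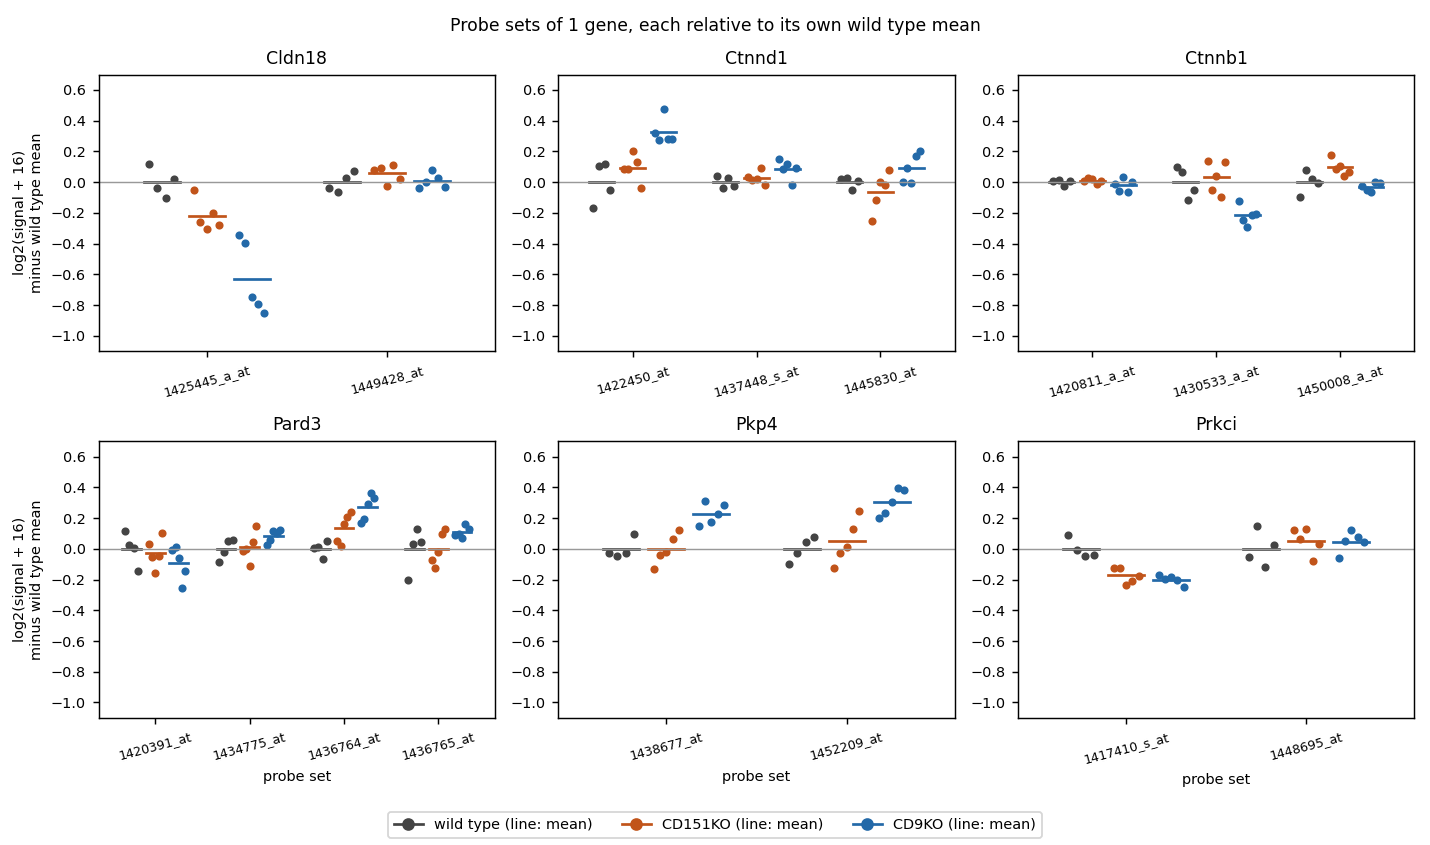
Log2(signal + 16) of every tested probe set of Cldn18, Ctnnd1, Ctnnb1, Pard3, Pkp4 and Prkci minus its own wild type mean (y axis), with probe sets along the x axis, 1 panel a gene; points are arrays, colours are groups and lines are group means. The 2 Cldn18 probe sets separate in the CD9KO arrays, at -0.63 and 0.0072 on average, and the 2 Prkci sets separate in both knockouts.

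Promoter windows were matched for 25 of the 35 members, 38 windows in all, some of them overlapping. The E2-box CAGGTG, searched on both strands, was present in 12 of the 38 (31.6%) and in 17.2% of all 32851 windows of the same length. CACGTG was present in 3 of 38, those of Cgn, Pard6b and Tjp3, against 6.02% of all windows. AACNNGTT was present in 2 of 38, against 3.64%. Of the passing members with a window, Tjp3, Cldn7, Epcam, Pkp4 and Pard6b had an E2-box in at least 1 window, and they include genes higher and lower in CD151KO than in CD9KO. No 2 matches overlapped in the windows shown. A match is a description of the letters only.

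Further genes of the same structures passed in CD9KO against wild type at 10% of 20 tight junction, 5.56% of 18 adherens junction and 12.5% of 24 polarity genes, beside 5.51% of all genes. Between the knockouts the shares were 0% of tight junction, 11.1% of adherens junction and 20.8% of polarity genes, beside 10.1% of all genes. In CD151KO against wild type none of these lists had a passing gene, beside 0.778% of all genes. Of the 20 tested tight junction genes outside the member list, 0 passed in CD151KO against wild type by limma (6 at an unadjusted p under 0.05), where Ildr1 (log2 0.23, adjusted p = 0.213), a tricellular junction receptor, and the scaffold Magi1 (log2 -0.17, adjusted p = 0.223) had the smallest p. In CD9KO against wild type Ybx3 (log2 0.23, adjusted p = 0.0427) and Sympk (log2 0.16, adjusted p = 0.0428), RNA-binding or processing proteins also found at tight junctions, were higher. Between the knockouts 0 passed (3 at an unadjusted p under 0.05), Ybx3 (log2 -0.16, adjusted p = 0.086) and Igsf5 (log2 0.13, adjusted p = 0.158) coming closest.

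Of 18 further adherens junction genes, 0 passed in CD151KO against wild type by limma (4 at an unadjusted p under 0.05), with Nectin2 (log2 0.27, adjusted p = 0.0566) and Cdh13 (log2 0.28, adjusted p = 0.127) closest. Afdn (afadin, which joins nectins to actin) was higher in CD9KO than in wild type (log2 0.15, adjusted p = 0.0441). Nectin2, an adhesion receptor (log2 0.20, adjusted p = 0.0379), and Cdh13, a cadherin held by a lipid anchor (log2 0.35, adjusted p = 0.00961), were higher in CD151KO than in CD9KO. Of 3 further desmosome genes, the plakin Ppl was lower in CD151KO than in CD9KO (log2 -0.24, adjusted p = 0.0325); 0 passed against wild type by limma in either knockout (0 at an unadjusted p under 0.05), where the closest were Ppl (log2 -0.10, adjusted p = 0.666) and Tmem47 (log2 -0.068, adjusted p = 0.702) in CD151KO and Ppl (log2 0.15, adjusted p = 0.206) and Evpl (log2 -0.064, adjusted p = 0.351) in CD9KO.

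Of 24 further polarity genes, 0 passed in CD151KO against wild type by limma (4 at an unadjusted p under 0.05), with Pard6g (log2 -0.22, adjusted p = 0.0737) and Lin7c (log2 -0.16, adjusted p = 0.125) closest. In CD9KO against wild type Prkcz, the other atypical kinase of the PAR complex, was lower (log2 -0.29, adjusted p = 0.0342), the scaffold Mpdz was higher (log2 0.31, adjusted p = 0.0204) and the GTPase Rac1 was higher (log2 0.13, adjusted p = 0.0149). Between the knockouts 5 passed: Dlg3 (log2 0.14, adjusted p = 0.0413) and Tiam1, an exchange factor for Rac (log2 0.37, adjusted p = 0.038), were higher in CD151KO. Pard6g, a paralogue of Pard6b (log2 -0.30, adjusted p = 0.00274), Mpdz (log2 -0.28, adjusted p = 0.012) and Rac1 (log2 -0.12, adjusted p = 0.00586) were lower. Pard6g and Pard6b were thus both lower in CD151KO than in CD9KO, but they differed from wild type in unlike ways. Pard6g differed by log2 -0.22 in CD151KO and 0.083 in CD9KO, and Pard6b by log2 -0.038 and 0.33. None of these differences from wild type passed in the main fit. Pard6a, in the same list, differed by log2 0.024 between the knockouts (limma adjusted p = 0.833).

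Of 5 tested gap junction genes, whose connexins form channels between neighbouring cells, 0 passed against wild type by limma (3 and 1 at an unadjusted p under 0.05 in CD151KO and CD9KO), with Gjb2 (log2 0.27, adjusted p = 0.17) and Gja1 (log2 0.15, adjusted p = 0.242) closest in CD151KO and Gja4 (log2 0.21, adjusted p = 0.134) and Gjc1 (log2 0.26, adjusted p = 0.252) in CD9KO. Gja1 (connexin 43) was higher in CD151KO than in CD9KO (log2 0.23, adjusted p = 0.00958).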

How the data were processed

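Whole lung RNA was hybridised to 14 one-colour Affymetrix arrays, 4 of wild type and 5 of each knockout. The deposited values are a normalized linear intensity per probe set; Expression Console and MAS5 are named in the submitters' processing notes, whose role and settings are not given in the sources used here. Of 45101 probe sets, 34945 carry 1 gene symbol, 932 several and 9160 none, and 64 are controls. Probe sets with several symbols were not used. Each gene took the probe set with the highest mean, and signals became log2(signal + 16). The filter was the 40th percentile of the mean log2 level over all probe sets except controls (signal 53.4). Genes below it were left out, which left 12985 of 18193. All 14 arrays were fitted together, with group as the only term (11 residual degrees of freedom), by limma 3.58.1 in R 4.3.3 (lmFit, then eBayes with a mean-variance trend, two-sided). P-values were adjusted by Benjamini-Hochberg over all genes tested. In simulated data for CD9KO against wild type over 12985 genes, 200 of them changed, the fit recovered 30% of changes of 0.2 and 85.8% of changes of 0.4 on the log2 scale, and 5.55% of its calls were false. The simulated noise was independent between genes and had no part shared across an array. In the measured arrays the first principal component held 37.5% of the variance. The simulated shares therefore give no rate of false or missed calls for these data.

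Every array value is given for members that passed in any comparison and for the member with the smallest unadjusted p of each role in each comparison. From the further junction and polarity lists, genes that passed are named, or otherwise the 2 with the smallest p. The members and all lists were chosen with earlier results of these data known. Alternatives changed the pseudocount, scaling, filter, probe set rule, arrays and model; fits of second probe sets were added after seeing the data. Same-numbered samples deviated together in some pairs but not throughout (correlation above 0.1 in 6 of 13 pairs, median 0.096, from -0.13 to 0.592). The median over the 52 differently numbered pairs was -0.01. The main fit did not take numbers as pairs, and an alternative fitted them as a block. Array values are listed in order of sample number. Promoter windows are RefSeq's, from GRCm38.p6, cut to the 250 bases before each start; motifs were searched on both strands. Python 3.11.15 and matplotlib 3.10.9 drew the figures.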

Additional observations from a re-analysis of the deposited data

Results flagged for a closer look

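In 105 groups of 4 or 5 arrays (35 members in 3 groups), 5 held an array whose gap to its nearest neighbour was large for the range of the group (Dixon's test at 95%); chance gives about 1 in 20 groups. Cldn2 read 63.3 on wild type 1 against at most 46.4 on the others, and 61.6 on CD9KO 4 against at most 46.2. Cldn4 read 83.2 on CD9KO 2 against at most 73.5. Cldn10 read 675 on CD9KO 5, below the 738 to 749 of the other CD9KO arrays. Dsp read 1645 on wild type 1, below the 1984 to 2021 of the other wild type arrays. Of the 5, 2 were on the arrays numbered 1 that stood apart from the rest.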

How the results depend on the processing

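Over 26 alternatives, the 32 tested members gave 2484 values, with 60 calls lost and 15 gained, the latter for 8 genes (Cldn3, Cldn10, Cldn12, Cldn18, Ctnnb1, Ctnnd1, Pard6b and Crb3). No called difference turned its sign; among differences that were not called, 59 values turned, in 19 gene and comparison pairs whose differences were at most 0.058 in size. Of 16 calls, 6 held in all 26: Cgn in CD9KO against wild type, and Cldn8, Cldn10, Cldn12, Tjp3 and Cgn between the knockouts. In CD151KO against wild type the count of 1 member became 0 with arrays centred on their median, the mean of all probe sets, only the compared groups, no trend, or both number 1 arrays left out, and 2 with array weights. Leaving out 1 array gave 0 to 1 in that comparison, 2 to 5 in CD9KO against wild type (2 without wild type 1, wild type 3, CD9KO 4 or CD9KO 5) and 6 to 12 between the knockouts (6 without CD9KO 5, 7 without CD151KO 1). Counting every probe set gave 9 in CD9KO against wild type and 18 between the knockouts. With the replicate number as a block the counts were 1, 6 (Cldn12 and Crb3 added) and 11, and over all genes 109, 1591 and 1821. Other counts over all genes that moved by more than 1.5 times were 335 with array weights, 39 with only the compared groups and 45 without both number 1 arrays in CD151KO against wild type, and in CD9KO against wild type 1090 with array weights and 405 without both number 1 arrays. Leaving out 1 array gave 24 to 98, 158 to 866 and 682 to 1939 calls over all genes in the 3 comparisons. Except where a smaller set of arrays or genes explains it by construction, the cause was not tested. Cldn2, Dsc2 and Pkp1, near background, allow no statement.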
